A study of Canis lupus familiaris with 45 samples.

Results

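SLC22A3 is 1 of 6540 genes named on the array and was measured by 2 of the 23836 probe sets analysed, 1597798_at and the dimmer 1597514_at, which are all those annotated to that single symbol. The gene spans 88424 bases of dog chromosome 1, from 49962647 to 50051070 on the assembly UU_Cfam_GSD_1.0, with 2 RefSeq transcripts (gene ID 476261). The place of each probe set within the gene is not given in the sources used here. An uncharacterised long noncoding RNA, LOC119870766, lies inside the span of the gene, and whether a probe set also reads it was not tested. The gene was chosen with its values known: 1597798_at had passed the threshold (adjusted p under 0.05, limma) at Week-1 and Week-2. That call was not stable: of 20 other settings it was kept in 7 at Week-1 and 13 at Week-2. Leaving out any 1 Week-1 or Day-0 dog ended it at Week-1, and leaving out Week-2 dog 1 or 2, or Day-0 dog 1 or 2, ended it at Week-2. Its levels and differences are therefore given as a description, without a test.

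SLC22A3 encodes organic cation transporter 3, also called the extraneuronal monoamine transporter, a membrane protein of broad substrate range. It lets noradrenaline, adrenaline, histamine and other organic cations cross the membrane down their electrochemical gradient, and does not depend on sodium. In the heart it is known as a part of the low-affinity, high-capacity uptake of catecholamines into non-neuronal cells, which works beside the high-affinity reuptake into sympathetic nerve endings.

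The study followed left ventricular expression while heart failure developed under rapid pacing. All 15 dogs were male and of matched age. Unpaced dogs formed the Day-0 group; in the others the right ventricle was paced at 240 ppm (pulses per minute). Day-3, Week-1 and Week-2 name how long pacing lasted, pacing went on for 3 to 4 weeks in the End-stage group, and each group had 3 dogs. The pacing lead was placed at an open-chest operation, and whether the Day-0 dogs had the same operation is not given in the sources used here. Transmural pieces of ventricle were used, so all cell types of the wall contribute. RNA was isolated 3 times from each piece and each isolation had its own single-colour array, giving 45 arrays.

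Median signal per array ran from 33.3 to 48.5, and no 2 arrays were identical. Each array was compared with the arrays of same-numbered dogs on probe sets chosen to separate dogs. There, 4 of the 6 arrays hybridised for End-stage dog 1 and for Week-1 dog 1 correlated best with an array of the other of the 2 dogs, which went against the labels; this was so of 0 of the other 39 arrays. The SLC22A3 values are given with and without these dogs. Of 57 tested genes on the lists of related genes and cell type markers described here, the wider solute carriers aside, 8 changed sign at Week-1 and 11 at End-stage without them, and 0 passed the threshold. Dog 1 of every group also had the lowest signal of its group for 7 of 8 tested cardiomyocyte markers, a pattern seen for 3.13% of all tested probe sets. Group means of the GAPDH 3'/5' signal ratio, a measure of RNA integrity, lay between 0.932 and 0.965. The same ratio for actin averaged 0.161 at Day-0, 0.185 at Day-3, 0.198 at Week-1, 0.209 at Week-2 and 0.208 at End-stage, with overlapping dogs, and its part in the SLC22A3 values was not tested.

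The mean signal of SLC22A3 was higher in the ventricles of paced dogs than of unpaced dogs at every time of pacing. On 1597798_at the mean log2 signals of the Day-0 dogs were 10.10, 10.04 and 10.42. The Day-3 dogs had 10.73, 10.93 and 10.81, and the Week-1 dogs had 11.02, 11.19 and 10.97. All 6 of these paced dogs lay above the 3 unpaced dogs. The Week-2 dogs had 11.24, 11.04 and 10.92, and the End-stage dogs had 11.06, 10.73 and 10.83. No paced dog of any group overlapped with Day-0. On the linear scale the geometric mean signal was 1166 at Day-0, 1814 at Day-3, 2135 at Week-1, 2147 at Week-2 and 1879 at End-stage. Single arrays were separated too: the lowest of the 36 paced arrays read 10.50, against 10.44 for the highest Day-0 array. Because whole tissue was measured, fewer cells of a type and less RNA per cell cannot be told apart, and the same holds for more.

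**Figure D1:**
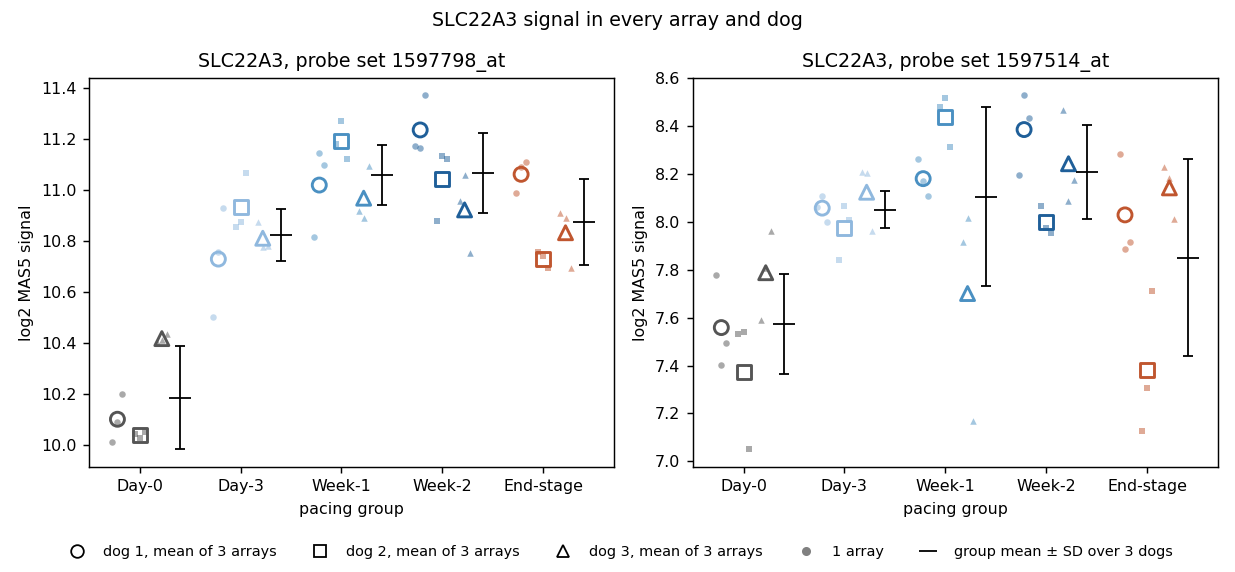
Log2 signal of both SLC22A3 probe sets (vertical axes) by group from Day-0 to End-stage (horizontal axes), for single arrays, dogs and group means. On 1597798_at all 12 paced dogs sit above the 3 Day-0 dogs; on 1597514_at Week-1 and End-stage dogs overlap with Day-0.

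The dimmer probe set showed the same direction with more spread. On 1597514_at the linear signals of the Day-0 dogs (geometric means of their arrays) were 189, 166 and 221. The Day-3 dogs had 266, 251 and 279, and the Week-2 dogs had 334, 256 and 303. Both of these groups lay wholly above Day-0. The Week-1 dogs had 290, 346 and 208, and the End-stage dogs had 261, 167 and 282. In each of these groups 2 of 3 dogs were above every Day-0 dog and the third was within the Day-0 range. Across the 15 dogs the probe sets had a Pearson r of 0.76 and a Spearman rho of 0.65, and over deviations of dogs from their group means r was 0.61. Deviations of single arrays from the dog's mean had an r of -0.22. The probe sets share the dogs and arrays, so these correlations are a description.

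The bright probe set was among the steadier ones on the array. The SD between isolations of a dog was 0.12 in log2 for 1597798_at and 0.21 for 1597514_at, against a median of 0.31 over the tested probe sets. Within groups, the SD over dogs was 0.15 for 1597798_at and 0.28 for 1597514_at, against a median of 0.27.

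In log2, 1597798_at was 0.64 higher at Day-3 than at Day-0, a 1.56-fold difference, with an SE of 0.13 that applies to all its differences. It was 0.87 higher at Week-1 (1.83-fold), 0.88 higher at Week-2 (1.84-fold) and 0.69 higher at End-stage (1.61-fold). These are differences of group means of 3 dogs each, and all 4 share the same Day-0 dogs. Without Week-1 dog 1 and End-stage dog 1 the Week-1 difference was 0.89 and the End-stage difference 0.60. The differences of 1597514_at had an SE of 0.21 and were 0.48 at Day-3, 0.53 at Week-1, 0.64 at Week-2 and 0.28 at End-stage. Without the same dogs its Week-1 difference was 0.50 and its End-stage difference 0.19; without End-stage dog 2 alone, the End-stage difference was 0.51.

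As background, all 3 paced dogs lay above all 3 Day-0 dogs for 6.16% of the 14302 tested probe sets at Day-3, 6.73% at Week-1, 8.08% at Week-2 and 6.33% at End-stage. All 12 paced dogs lay above Day-0 for 0.909%, a set that holds 1597798_at and not 1597514_at. At an adjusted p under 0.05 (limma), 0% of probe sets were called higher at Day-3, 0.0210% at Week-1, 0.0420% at Week-2 and 0% at End-stage. At an unadjusted p under 0.05, 8.07%, 9.00%, 11.2% and 8.23% differed in either direction. The gene was chosen from these contrasts, so nothing is read from its place among them. Of the tested probe sets, 2.75% had a larger difference than 1597798_at at Day-3, 1.06% at Week-1, 1.45% at Week-2 and 1.94% at End-stage. For 1597514_at, which was called in no comparison here and in 1 of 20 other settings at Week-2, these shares were 5.86%, 4.30%, 3.64% and 12.5%.

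**Figure D2:**
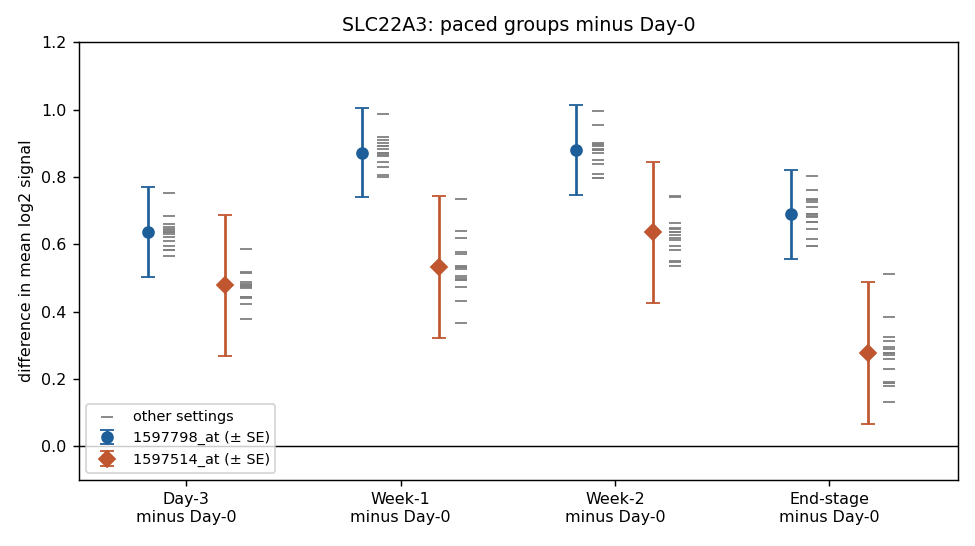
Difference in mean log2 signal between each paced group and Day-0 (vertical axis) for both SLC22A3 probe sets, with SE bars; grey dashes are the values under other processing settings. Every value is above 0, and those of 1597798_at range from 0.56 to 1.00.

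From high to low, the order of group means on 1597798_at was Week-2 (11.07 ± 0.16), Week-1 (11.06 ± 0.12), End-stage (10.88 ± 0.17), Day-3 (10.82 ± 0.10) and Day-0 (10.19 ± 0.20; SD, n = 3 each). Neighbours in this order overlapped, except that Day-3 stood wholly above Day-0. Week-2 minus Week-1 was 0.01, End-stage minus Week-1 was -0.18 and End-stage minus Day-3 was 0.05 (SE 0.13 each). Week-1 minus Day-3 was 0.23, and these groups did not overlap. Without Week-1 dog 1 and End-stage dog 1 that difference was 0.25, End-stage minus Week-1 was -0.30 and End-stage minus Week-2 was -0.29. In all 3 the dogs did not overlap, but Week-1 and End-stage each had 1 dog fewer. So few dogs can stand apart by chance. The share of all tested probe sets without overlap between paced groups was not computed, so nothing is read from these separations. On 1597514_at all paced groups overlapped, and the order differed in that Day-3 (8.05 ± 0.08) stood above End-stage (7.85 ± 0.41).

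Other carriers of organic cations and monoamines were next examined. Of 13 listed, 5 had a probe set and 3 passed the filter on low signal, and none of the 3 passed the limma threshold in any comparison or had an unadjusted p under 0.05. Over all tested probe sets 0% passed at Day-3, 0.0280% at Week-1, 0.0839% at Week-2 and 0.0140% at End-stage. SLC22A4, a carrier of ergothioneine and other organic cations, had log2 signals of 6.14, 5.99 and 6.17 at Week-2, against 5.50, 5.98 and 5.59 at Day-0. Its differences were 0.29 at Day-3, 0.10 at Week-1, 0.41 at Week-2 and 0.30 at End-stage (SE 0.19). SLC18A2, which loads monoamines into vesicles, differed by 0.00, 0.21, 0.24 and 0.17 at the same times (SE 0.15). SLC22A2, the organic cation transporter best known from kidney, differed by 0.17, -0.19, 0.36 and 0.26 (SE 0.38), and by 0.21 at Week-1 without Week-1 dog 1. The median of these 3 genes was 0.17 at Day-3, 0.10 at Week-1, 0.36 at Week-2 and 0.26 at End-stage, against 0.00, -0.03, -0.01 and -0.02 over all tested probe sets. At Day-3, Week-2 and End-stage this median is the value of SLC22A2 alone. Its mean log2 signal was 4.60 at Day-0 and 4.41 at Week-1, near the filter on low signal (4.51), so nothing is read from the median. SLC22A16 and SLC47A2 were below the filter, and the neuronal noradrenaline transporter SLC6A2 and the monoamine transporter SLC29A4 had no probe set with that single symbol.

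Of 13 other listed members of the SLC22 family, 4 had a probe set and 2 were tested. Neither passed the threshold or had an unadjusted p under 0.05. SLC22A17, a receptor for lipocalin-2, differed by 0.21, 0.32, -0.01 and 0.30 from Day-3 to End-stage (SE 0.16), and its dimmer probe set disagreed with -0.30, 0.15, 0.14 and -0.40. SLC22A18 differed by -0.13, -0.11, 0.00 and -0.07 (SE 0.19). SLC22A6 and SLC22A23 were below the filter. SLC22A10, a family member left off this list, had 3 probe sets, of which 1 was tested. It differed by 0.31, -0.11, 0.25 and -0.40 (SE 0.25), and did not pass the threshold or have an unadjusted p under 0.05.

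Enzymes that break down monoamines taken up by cells showed no shared direction. All 11 of the 13 listed that had a probe set were tested, and none passed the limma threshold. At an unadjusted p under 0.05 (limma), 1 differed, AKR1B1 at Week-2, against 11.2% of all tested probe sets there. The medians of the list were -0.04 at Day-3, 0.10 at Week-1, -0.04 at Week-2 and 0.02 at End-stage. AKR1B1, aldose reductase, had 10.53, 10.09 and 10.90 at Week-2, against 11.65, 10.73 and 11.17 at Day-0. This difference of -0.67 (SE 0.26) had an adjusted p of 0.337, and passed the threshold in a fit to the 45 single arrays. MAOA, a monoamine oxidase of the outer mitochondrial membrane, differed by -0.16, -0.11, -0.36 and -0.13 (SE 0.22), and its other probe sets disagreed in sign at Day-3, as did 1 of them at Week-2 with 0.15. MAOB, the second monoamine oxidase, differed by -0.04, 0.42, 0.21 and -0.19 (SE 0.34). HNMT, which methylates histamine inside cells, differed by 0.00, 0.10, -0.52 and -0.16 (SE 0.29). The diamine oxidase AOC1 differed by 0.52, 0.26, 0.51 and 0.34 (SE 0.36). The remaining 6, AOC3, RNLS, ALDH2, ALDH1A1, ALDH3A2 and SULT1A1, lay between -0.39 and 0.43, with RNLS at 0.75 at Week-1 without Week-1 dog 1, and the probe sets of ALDH3A2 differed in sign.

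**Figure D3:**
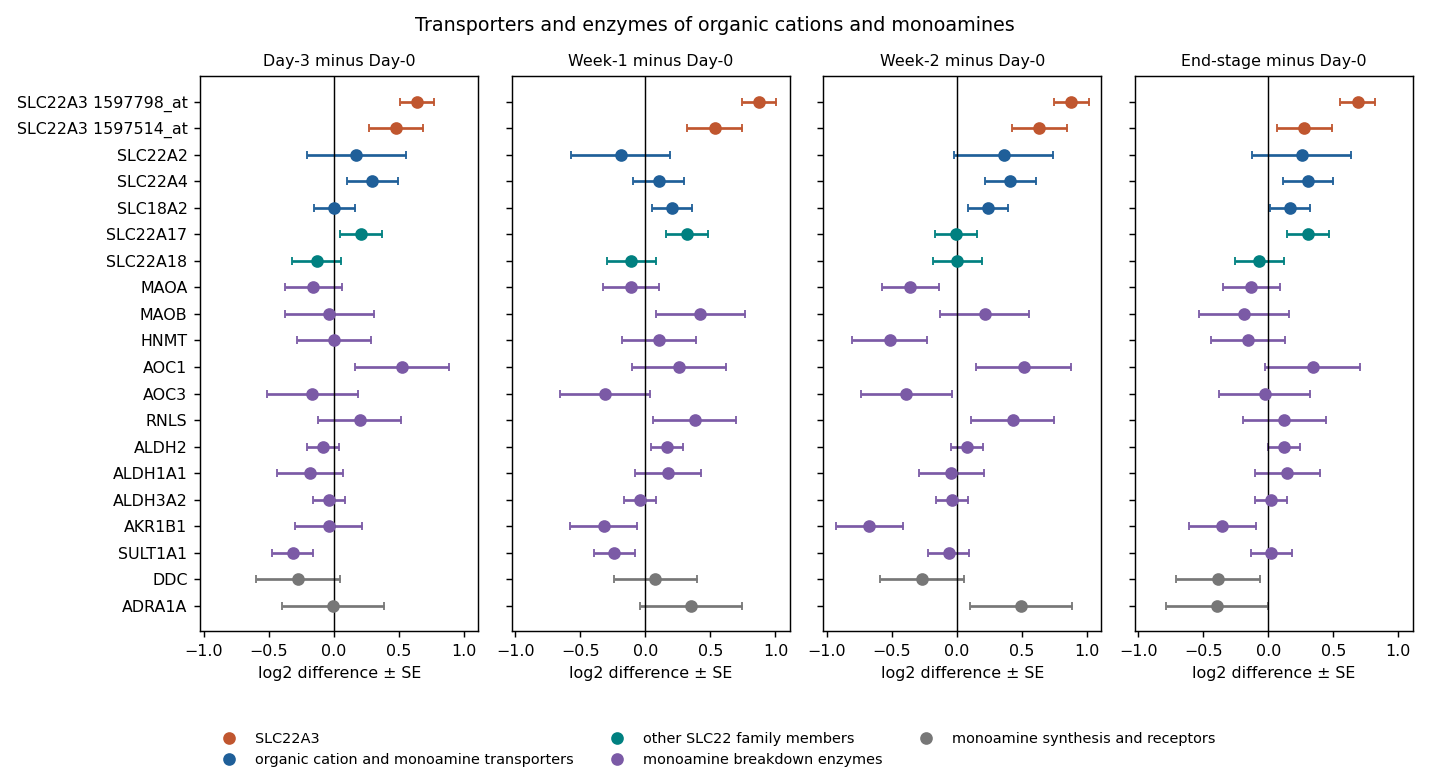
Log2 differences between paced groups and Day-0 for both SLC22A3 probe sets and tested related genes. These are the listed transporters, other listed SLC22 members (without SLC22A10), breakdown enzymes, and synthesis and receptor genes. SLC22A3 on 1597798_at lies at 0.64 to 0.88 and passed the threshold at Week-1 and Week-2 only, the calls known when it was chosen. Neither 1597514_at nor any other gene drawn passed it.

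Of 25 genes for monoamine synthesis and receptors, 6 had a probe set and 2 were tested, and neither passed the threshold or had an unadjusted p under 0.05. ADRA1A, an alpha-1 adrenergic receptor, differed by -0.01, 0.35, 0.50 and -0.39 from Day-3 to End-stage (SE 0.39). DDC, the decarboxylase that forms dopamine, differed by -0.27, 0.08, -0.27 and -0.39 (SE 0.32).

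The wider list of solute carriers took every gene other than SLC22A3 whose symbol starts with SLC and a digit. It therefore also holds SLC9A3R1, SLC9A3R2 and SLC2A4RG, which are named after a carrier but are not carriers. Of 122 such genes on the array 86 were tested, and none passed the limma threshold. At an unadjusted p under 0.05 (limma), 4 were higher and 5 lower at Day-3, and 5 and 7 at Week-1. At Week-2 these counts were 6 and 7, and at End-stage 2 and 4. SLC9A3R2 was among the lower genes at Day-3 and Week-1. Over all tested probe sets 8.07%, 9.00%, 11.2% and 8.23% differed in either direction from Day-3 to End-stage. A larger difference than that of SLC22A3 was seen for 3 at Day-3, 1 at Week-1, 3 at Week-2 and 4 at End-stage. SLC2A3, a glucose transporter, had 8.89, 9.12 and 8.70 at Week-2, against 7.69, 8.11 and 8.14 at Day-0. The groups did not overlap. All 3 Week-2 dogs lay above Day-0 for 10 of the 86 genes and for 8.08% of all tested probe sets. The SLC2A3 difference of 0.92 (SE 0.21) had an adjusted p of 0.0959 (limma). The glucose transporter SLC2A1 differed by 1.01 at Week-1 (SE 0.42) and the taurine transporter SLC6A6 by 0.98 at Week-2 (SE 0.52) and 0.94 at End-stage. SLC13A2, a carrier of dicarboxylates and citrate, differed by 1.06 at Day-3 and 1.14 at Week-2 (SE 0.42). Its Day-0 mean of 4.21, like the 4.27 of SLC6A18, lay under the filter on low signal (4.51 in log2). Both were tested only because some paced groups were higher. The others above SLC22A3 were the glutamate transporter SLC1A3 (0.92, SE 0.25) and SLC6A18 (0.84, SE 0.38) at Day-3, and SLC2A1 (0.80) and the amino acid transporters SLC1A4 (0.72, SE 0.37) and SLC38A2 (0.70, SE 0.25) at End-stage. The median difference of the 86 genes on this list was 0.07, -0.03, 0.02 and 0.01 from Day-3 to End-stage.

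The genes next to SLC22A3 on chromosome 1 had smaller differences than 1597798_at in every comparison, taken on the brightest probe set of each. Within 1000000 bases lie 35 annotated genes, 17 of them protein coding; 9 had a probe set and 7 were tested, none past the limma threshold or at an unadjusted p under 0.05. PLG, plasminogen, begins 602 bases from the end of SLC22A3 and differed by 0.31 at Day-3, 0.11 at Week-1, -0.11 at Week-2 and -0.12 at End-stage (SE 0.33). IGF2R, the receptor that clears insulin-like growth factor II, differed by 0.04, -0.05, 0.14 and -0.02 (SE 0.14), while its dimmer probe set differed by 0.35, 0.04, 0.26 and 0.18. SOD2, the mitochondrial superoxide dismutase, differed by -0.25, -0.15, -0.21 and -0.18 (SE 0.17), while its dimmest probe set differed by -0.92, -0.25, -0.47 and -0.19. In mouse, Igf2r, Slc22a2 and Slc22a3 belong to 1 imprinted cluster. The 7 genes, with SOD2, TCP1, MRPL18, SLC22A2 and MAP3K4, ranged from -0.21 to 0.36 at Week-2. FNDC1 and AGPAT4 were below the filter.

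**Figure D4:**
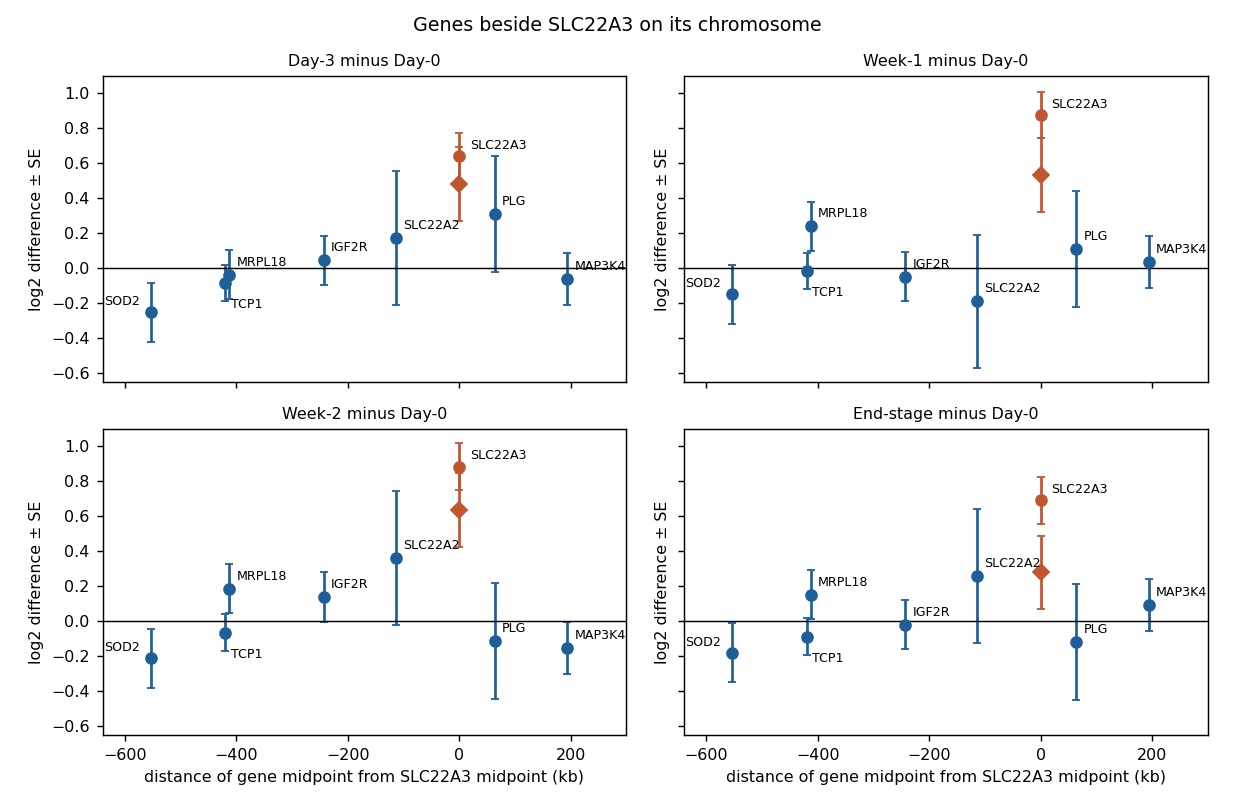
Log2 difference from Day-0 with SE (vertical axes) against distance of the gene's midpoint from that of SLC22A3 in kb (horizontal axes), 1 panel per paced group. The 7 neighbours lie between -0.25 and 0.36 over the 4 panels, and 1597798_at lies between 0.64 and 0.88.

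Likeness to SLC22A3 was taken as Pearson's r with 1597798_at over the 15 dogs, given as a description, since the dogs share groups and arrays. The median r of 14301 probe sets was -0.02, and 26 were above 0.8. The second SLC22A3 probe set ranked 56 with its r of 0.76. The most like named gene was UBE2J1 (r = 0.90), a ubiquitin-conjugating enzyme of the endoplasmic reticulum. Its dogs had 5.93, 5.77 and 5.34 at Week-2, against 3.90, 4.16 and 4.61 at Day-0. Its Day-0 mean of 4.23, like the 3.44 of CTH, lay under the filter on low signal (4.51 in log2), so both were tested only because the paced dogs were higher. OSGIN2 followed with 0.89, then the protocadherin PCDH9, the anchoring protein AKAP13 and the pseudokinase TRIB1 with 0.86 each. UFM1, a ubiquitin-like modifier, and MCL1, which opposes apoptosis, had 0.84. The RNA-binding protein CELF1 and the cystathionine lyase CTH had 0.83, and the transcription factor NFIL3 had 0.82. With Spearman's rho 2 of these 10 stayed among the 10 most like, with quantile normalisation 4, without Week-1 dog 1 and End-stage dog 1 5, and over deviations from group means 1. UBE2J1 was in the list each time.

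The most opposite were PPM1J (r = -0.91), a protein phosphatase, and TIMM8A (-0.90), a chaperone of mitochondrial protein import. SLC25A5, an ADP/ATP carrier of the inner mitochondrial membrane, had -0.89, and DUT, a dUTPase, and MRPL38, a mitochondrial ribosomal protein, had -0.86. PPM1J had 6.70, 6.70 and 7.08 at Week-2, against 7.78, 7.84 and 7.40 at Day-0, with no overlap; all 3 paced dogs lay below Day-0 for 9.21% of tested probe sets there.

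**Figure D5:**
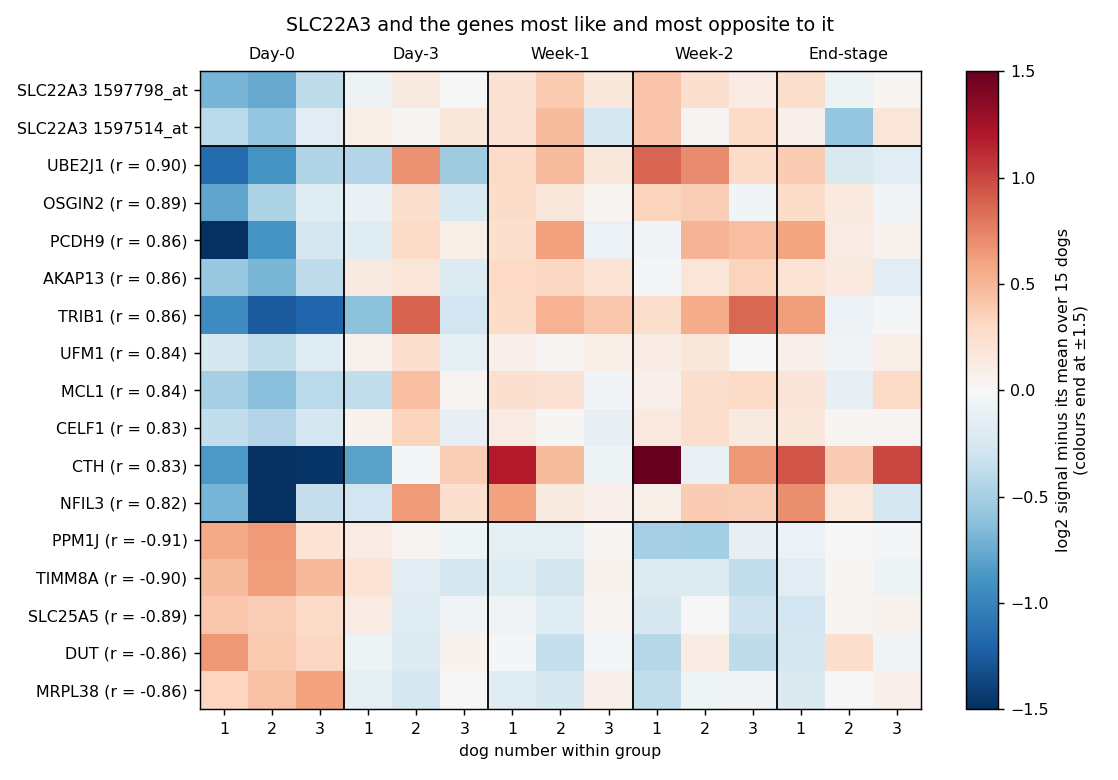
Log2 signal by dog, less the mean of each probe set over the 15 dogs, with capped colours. Drawn are both SLC22A3 probe sets and the probe sets most like and most opposite to 1597798_at. UBE2J1 has an r of 0.90 and PPM1J an r of -0.91.

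Cell type markers were set beside these values, and the tissue carried high signal for cardiomyocyte genes. The summed signal of 8 tested cardiomyocyte markers had a median of 88292 at Day-0, 78657 at Day-3, 69687 at Week-1, 74581 at Week-2 and 78572 at End-stage. Groups overlapped, and dog 1 was the lowest of each group, at 58003 to 61291. RYR2, the calcium release channel, had 10.61, 10.55 and 10.83 at Week-2, against 11.15, 11.30 and 11.55 at Day-0. Its difference of -0.67 (SE 0.14) had an adjusted p of 0.0796, and it passed the threshold with dog number as a block (adjusted p = 0.0392). The other named cardiomyocyte markers, TNNT2 and MYL2, differed by -0.22 to -0.07. RYR2 was the only 1 of the 8 with an unadjusted p under 0.05 (limma) in any comparison, and it was lower in all 4. Of all tested probe sets, 8.07%, 9.00%, 11.2% and 8.23% differed at that level in either direction from Day-3 to End-stage. The part of these markers in the SLC22A3 values was not tested.

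No smooth muscle or pericyte marker passed the threshold. The summed signal of 5 tested genes ran from 5832 to 6454 at Week-2 and from 5102 to 5437 at End-stage, against 6369 to 8239 at Day-0, so the End-stage dogs lay wholly below Day-0 and the Week-2 dogs overlapped with it. The median difference of the 5 genes was -0.12 at Day-3, -0.15 at Week-1, -0.40 at Week-2 and -0.61 at End-stage, against 0.00, -0.03, -0.01 and -0.02 over all tested probe sets. As background, all 3 End-stage dogs lay below Day-0 for 7.94% of tested probe sets. At End-stage KCNJ8, a potassium channel of pericytes and smooth muscle, differed by -0.71 (SE 0.23), MYH11, smooth muscle myosin, by -0.69 (SE 0.29) and SMTN, smoothelin, by -0.61 (SE 0.13). The smallest adjusted p of the list there was 0.178 (limma), and 4 of 5 were lower at an unadjusted p under 0.05, against 8.23% of all tested probe sets in either direction. SMTN and KCNJ8 passed the threshold in the fit to single arrays. Their part in the SLC22A3 values was not tested.

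None of the markers of other cells passed the limma threshold. At an unadjusted p under 0.05 (limma), 8.07%, 9.00%, 11.2% and 8.23% of all tested probe sets differed in either direction from Day-3 to End-stage. Of 4 endothelial markers, 1 was lower at Day-3, 2 were lower at Week-1, 1 was higher at Week-2 and 1 at End-stage. Of 6 macrophage markers, 2 were higher at Day-3 and 1 at End-stage, and 0 of the other markers differed. Their part in the SLC22A3 values was not tested. The sum of 5 fibroblast markers ran from 7804 to 10018 at Week-2, against 7532 to 10745 at Day-0. COL1A1, a collagen chain, differed by 0.96, 0.99, 1.10 and 1.02 from Day-3 to End-stage (SE 0.53), COL1A2 by 0.40 to 0.51 and COL3A1 by 0.20 to 0.51. The other markers, DCN and DPT, were at -0.002 and 0.09 at Week-1, and at -0.04 and 0.20 at End-stage. Of the 5, 3 were above 0 at Day-3 and 4 at each later time. The lowest was -0.07 at Day-3 and -0.15 at Week-2. The sum of 4 endothelial markers was 2092 to 2275 at Week-1 and 2676 to 3297 at Week-2, against 2489 to 2666 at Day-0. It thus stood on different sides of Day-0, but the median difference of the 4 was -0.31 at Week-1 and -0.11 at Week-2. Only 1 of the 4, VWF, was above 0 at Week-2. As background, all 3 Week-2 dogs lay above Day-0 for 8.08% of tested probe sets, and the share below Day-0 at Week-1 was not computed. VWF, von Willebrand factor, had 10.87, 10.91 and 10.62 at Week-2, against 10.20, 10.30 and 10.29 at Day-0. That difference of 0.53 (SE 0.14) had an adjusted p of 0.128, and of 0.0455 with dog number as a block. TIE1 and TEK, endothelial receptors, were at -0.25 and -0.18 at Week-2. The sum of 6 macrophage markers was 398 to 484 at Week-2, against 324 to 429 at Day-0, and CD14, TYROBP and C1QC differed there by -0.33, 0.38 and 0.39. For mast cells, adipocytes and neurons 1 marker each was tested (MS4A2, ADIPOQ and SNAP25). From Day-3 to End-stage MS4A2 differed by -0.06, -0.74, 0.09 and -0.14 (SE 0.38), ADIPOQ by 0.84, 1.67, 0.41 and -0.02 (SE 1.1) and SNAP25 by 0.20, -0.58, 0.16 and -0.15 (SE 0.39). MS4A2 and SNAP25 lay near the filter on low signal (22.8 on the linear scale). At Week-1 the signal of MS4A2 ran from 12.1 to 26.3, against 21.3 to 33.1 at Day-0. That of SNAP25 ran from 14.4 to 21.5, against 16.9 to 36.9. The Week-1 dogs of ADIPOQ overlapped with Day-0, and without Week-1 dog 1 its difference was 2.56. The T cell markers CD3E and CD3D differed by -0.30 and 0.26 at Week-2. No mesothelial or red cell marker had a probe set with its single symbol.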

How the data were processed

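The deposited values are linear signal intensity per probe set, made with GCOS 1.4 and MAS5 per the submitters' processing notes; with the outer 2% of values trimmed at each end, the array means were 150.02 to 150.026. The table held 23913 probe sets on 45 arrays, 77 of them controls that were left out. Gene names came from a 2016 annotation of the array, in which 10549 probe sets had 1 symbol, 138 several and 13226 none. The single symbols were looked up by gene ID in RefSeq, where 10046 were found and 0 were changed.

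The log2 signals of a dog's 3 arrays were averaged, which makes the dog the replicate. Probe sets in the lowest 40% by mean (signal under 22.8) were dropped, leaving 14302 for testing. A model with group means was fitted over the 15 dogs (limma 3.58.1, R 4.3.3; lmFit and eBayes, trend by intensity). P-values were two-sided, with Benjamini-Hochberg adjustment over all 14302 and a threshold of 0.05. The fit was tested on simulated data. A gene with several probe sets was represented by its brightest.

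SLC22A3, the gene lists and the tests were chosen with earlier results of these data known. Named are both SLC22A3 probe sets, the measured transporters, breakdown enzymes and chromosomal neighbours, up to 3 members of each other list by moderated F p, and the 10 most like and 5 most opposite single-symbol probe sets. Solute carriers with a larger difference than SLC22A3 were named after their values were seen. Arrays have no sequencing depth; precision rests on the number of dogs. Alternatives tried were other normalisations, filters and averages, and leaving out dogs or isolations.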

Additional observations from a re-analysis of the deposited data

Results flagged for a closer look

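One array stood apart from the others of its group. For SLC22A3 probe set 1597514_at, isolation 3 of Week-1 dog 3 had a log2 signal of 7.17, against 7.92 and 8.01 in the other isolations of the same dog. Its gap to the next array, as a share of the range of the 9 Week-1 arrays, was 0.555, above the critical ratio of 0.493. On the same array probe set 1597798_at read 11.09, above the 10.92 and 10.89 of that dog's other isolations. In all, 10 sets of 9 arrays were checked, chance gives about 1 such array in 20 sets, and the arrays of a dog are not independent. With every isolation 3 left out, the Week-1 minus Day-0 difference of 1597514_at was 0.62 in log2.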

How the results depend on the processing

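All 8 SLC22A3 differences from Day-0 kept their sign and moved by less than the SD between dogs in the 17 other settings run for each; in 3 of these (4 at Day-3 and Week-2) the group means are the same by construction. They lay between 0.56 and 0.75 (Day-3), 0.80 and 0.99 (Week-1), 0.80 and 1.00 (Week-2) and 0.60 and 0.80 (End-stage) for 1597798_at, and between 0.38 and 0.59, 0.37 and 0.73, 0.54 and 0.74, and 0.13 and 0.51 for 1597514_at. The counts of probe sets past the limma threshold, 0 at Day-3, 4 at Week-1, 12 at Week-2 and 2 at End-stage, moved more, and the cause was not tested. Quantile normalisation gave 13 at Week-1, 24 at Week-2 and 0 at End-stage, median centring gave 1, 4 and 0, and a pseudocount of 16 gave 12 at Week-1. The median of the 3 arrays gave 1 at Day-3, 0 at Week-1 and 0 at End-stage. Leaving out isolation 1 gave 0 at Week-1, 6 at Week-2 and 0 at End-stage, leaving out isolation 2 gave 1 at Day-3, 0 at Week-1, 19 at Week-2 and 4 at End-stage, and leaving out isolation 3 gave 5 at End-stage. Without a filter on low signal there were 7 at Week-1 and 0 at End-stage, with the lowest 60% left out 12 at Week-1, and without the intensity trend 0 at Week-1, 2 at Week-2 and 0 at End-stage. Only the 6 dogs of a comparison gave 7, 40 and 6 at Week-1, Week-2 and End-stage, and leaving out Week-1 dog 1 and End-stage dog 1 gave 0 at Week-1 and 11 at End-stage. With single dogs left out, the counts ran from 0 to 23 at Day-3 (23 without Day-3 dog 1), were 0 each time at Week-1, and ran from 0 to 20 at Week-2 (0 without Week-2 dog 2, 20 without Week-2 dog 3) and from 0 to 6 at End-stage (6 without End-stage dog 1). Fitting all 45 arrays, with dog taken as a random effect, called 273, 377, 483 and 322 probe sets, among them 1 list gene at Day-3 (RYR2), 3 at Week-2 (RYR2, AKR1B1 and VWF) and 2 at End-stage (SMTN and KCNJ8). Over all tested probe sets the dog numbers did not meet the rule for pairs: same-numbered deviations correlated at -0.08 to 0.17 with Day-0, above 0.1 in 4 of 12 pairs, and 7 of 12 paced dogs were closest to their own number, although dog 1 was lowest in every group for 7 of 8 cardiomyocyte markers. With the number as a replicate block the counts were 17 at Week-1, 88 at Week-2 and 0 at End-stage, with 2 list genes at Week-2 (RYR2 and VWF), and SLC22A3 1597798_at stayed called at Week-1 and Week-2; the block cannot change a difference of group means here.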
